A study of Rattus norvegicus with 6 samples.

Results

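The genes described here encode potassium channel subunits and their accessory proteins, and were taken as all probe sets whose platform annotation gave 1 gene symbol beginning with Kcn. They comprised 126 of 31042 probe sets and 75 of the 14217 genes on the array that had such a symbol. Each gene was read by its probe set with the highest mean log2 value over the 6 arrays. The RNA came from retinal ganglion cells, the output neurons of the retina, of 3 adult male Brown Norway rats with no genetic change stated in the labels. In each animal the pressure of 1 eye had been raised for 10 days with hypertonic saline delivered through an episcleral vein, and the other eye was the control. Cells in both eyes carried the tracer Fluorogold from the superior colliculus, and 2000 cells per eye were laser-captured before RNA amplification. The 2 groups were the right eye (OD, n = 3 arrays, rats 1 to 3) and the left eye (OS, n = 3 arrays, the same rats). The labels do not give the treated eye, so OS minus OD compares left with right and cannot be read as treated against control.

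Potassium channels let potassium leave or enter a cell and so set its resting potential, end each action potential and limit its firing rate. Subunits with a voltage sensor (Kcna, Kcnb, Kcnc, Kcnd, Kcnh, Kcnq) open on depolarization, calcium-activated channels (Kcnma1, Kcnn) respond to calcium inside the cell, inward rectifiers (Kcnj) and tandem-pore leak channels (Kcnk) act near rest, and accessory subunits (Kcnab, Kcnip, Kcne, Kcnmb) alter gating or transport of the pore. In ganglion cells, Kcna and Kcnc channels are known for shaping spikes at the axon and for fast repolarization, respectively. Fewer expressing cells and less RNA per cell cannot be told apart in these samples.

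Values were scaled intensities, and each array's control limit, the 95th percentile of 27 bacterial control probe sets other than the hybridization spike-ins, lay between 261 and 591. Between 34.8% and 58.1% of probe sets exceeded this limit on an array. Of the 75 channel genes, 44, 29 and 41 exceeded it on the OD arrays of rats 1 to 3, and 33, 22 and 35 on the OS arrays. The shares of all probe sets were 58.1%, 34.8% and 52.1% in OD and 47.6%, 34.9% and 45.5% in OS. These shares include the dimmer probe sets of a gene, whereas the channel counts take only the brightest, so the 2 are not like for like. The limits themselves were 261, 591 and 293 in OD and 400, 547 and 409 in OS. Ganglion cell markers were present: 13 of 15 listed genes were measured, 7 of them exceeded the limit on all 6 arrays, and none lay at or below it throughout. Their summed intensity was 23323 to 32504 in OD and 12974 to 18982 in OS, without overlap, and 11 of the 13 had a lower mean in OS. The 10 amacrine cell markers also summed to higher values in OD (27963 to 72852) than in OS (12619 to 24454), with Chat and Tfap2a at or below the limit on every array. So did 7 of 8 listed pigment epithelium markers (6889 to 36095 against 2337 to 4976), of which none lay at or below the limit throughout. The amacrine sums came mostly from Calb2, Gad1, Pax6 and Tfap2b, and Slc6a9 and Th had a higher mean in OS. The highest pigment epithelium sum, OD of rat 3, came mostly from Pmel and Tyrp1. In rat 2 Pmel, Tyrp1, Rpe65 and Tyr were higher in OS. The log2 ratio of the 3' to the 5' beta-actin control exceeded that of OD by 1.32 ± 0.52 in OS (SD, n = 3 rats, same sign in all 3). These marker sums and this ratio moved with the lower channel genes below, and their part in those values was not tested.

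No potassium channel gene passed the threshold in the comparison of eyes. Of the 75 genes, 35 had a mean brightness at or above the median of all probe sets and entered the fit (46.7%, against 60.4% of all genes), and 40 did not. By limma with rat as a block and Benjamini-Hochberg adjustment over 15521 probe sets, 0 of the 35 passed an adjusted p of 0.05, where 0.0129% of all tested probe sets and 0.0116% of the 8594 genes tested did. At an unadjusted p under 0.05 there were 7, each lower in OS: Kcna2, Kcna5, Kcnab1, Kcnc1, Kcnc2, Kcnip1 and Kcnma1. They made up 20% of the 35, against 5.20% of all genes tested, and 0 were higher in OS, against 1.73% (6.94% in both directions). Kcnma1 counts here by its brightest probe set alone, and its other probe sets, not tested, were higher in OS in 3 of 3 rats. The split depended on the setting: without the eBayes trend the 7 comprised 5 lower and 2 higher (Kcnv2 and Kcnk10), with Kcnc2 and Kcnip1 no longer among them. One gene higher in OS joined with a random rat block (Kcnv2), with no filter (Kcnj10) and without rat 3 (Kcnj14). The filter used the mean over both eyes. Kcna5, Kcnab1 and Kcnma1, with OS means of 7.227, 7.095 and 6.796 on the log2 scale, thus entered the fit through OD, and Kcnk10 and Kcnv2 through OS. With no filter, 9 of the 75 had an unadjusted p under 0.05 by limma, 8 of them lower in OS. Over all probe sets 1943 of 31042 did, in both directions. When the probe sets of a gene were averaged, 2 of 24 channel genes tested did, against 440 of all 7367 genes tested. Each p-value weighs the spread between these 3 rats together with that of other probe sets of similar brightness. The latter counts for most, with 19.4 prior against 2 residual degrees of freedom.

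The medians and sign counts of the family lay near those of all genes, while the share with every OD array above every OS array was higher. The median difference over the 35 tested genes was -0.16 on the log2 scale, beside -0.07 over all genes tested, with medians of 0.15, -0.46 and -0.24 in rats 1 to 3. Over all 75 genes it was -0.03, with 40 lower (53.3%, against 50.7% of all genes) and 35 higher in OS. A lower value in OS in 3 of 3 rats was found for 11 of the 75 (14.7%, against 13.8% of all genes), and a higher one for 10 (13.3%, against 14.0%). In 9 of the 75 every OD array exceeded every OS array (12.0%, against 5.30% of all genes), and in 6 every OS array exceeded every OD array (8.0%, against 5.16%). Among these 6, Kcnj10 and Kcns2 exceeded the control limit on no array. The 9 include Kcnma1, whose other probe sets had every OS array above every OD array.

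**Figure D1:**
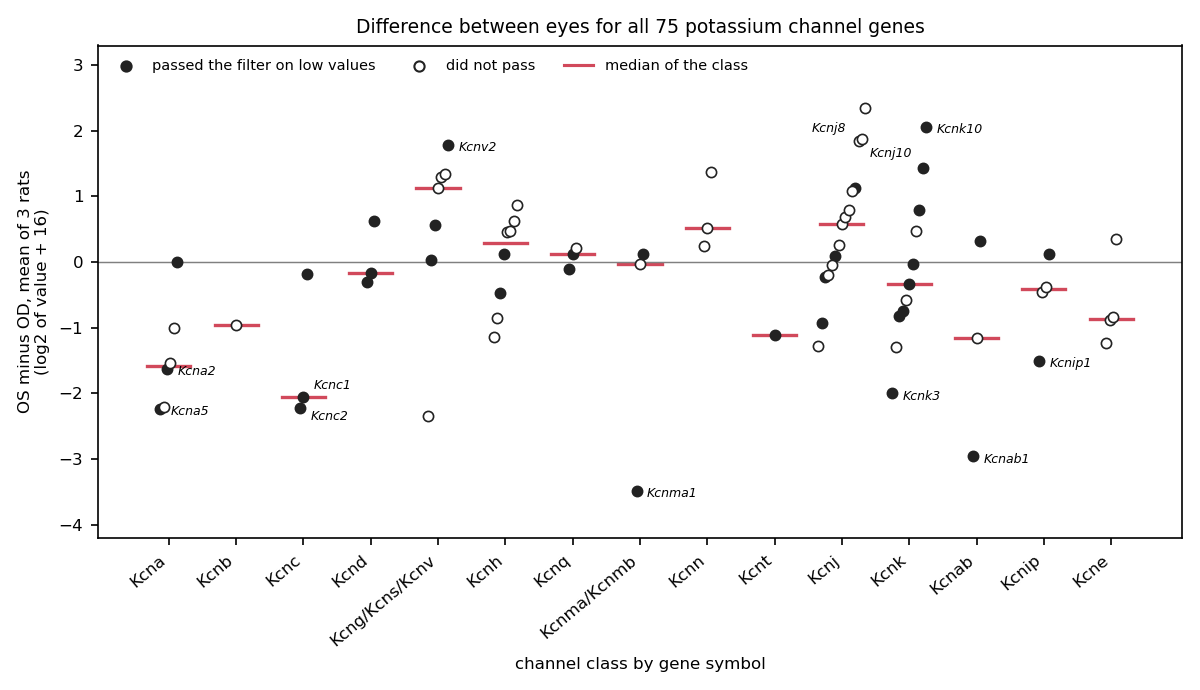
Difference between eyes (OS minus OD, mean of 3 rats, log2 of value + 16) for each of the 75 genes, by channel class; filled points passed the filter on low values and red bars are class medians. The Kcna and Kcnc classes have medians of -1.59 and -2.06, while the Kcng, Kcns and Kcnv class has a median of 1.13 over all 7 genes and 0.56 over the 3 in the fit; no gene passed the adjusted threshold.

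The Kcnc class, whose channels open at strongly positive voltage and close fast, allowing rapid firing, had 3 genes measured, and all 3 entered the fit. Kcnc1 (1368524_at) measured 4223.5, 3831.5 and 9585.9 in OD and 1292.7, 1297.4 and 1231.2 in OS of rats 1 to 3. All OS arrays lay close together, below every OD array, and all 6 values exceeded the control limit. The log2 difference was -2.06 ± 0.77 (SD, n = 3 rats, limma adjusted p = 0.181). Without rat 1 its limma adjusted p was 0.0235 and without rat 2 it was 0.0281, both past the threshold. Without rat 3 it was 0.288. These fits had 1 residual degree of freedom, and their prior degrees were infinite without rat 1 or rat 3 and 34.3 without rat 2. Their p-values thus rest almost wholly on the spread of other probe sets, not on that of Kcnc1 between rats. Over all tested probe sets 26, 59 and 18 passed there, against 2 with every rat. Over all alternatives the adjusted p of Kcnc1 ran from 0.0235 to 0.953.

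Kcnc2 (1370439_a_at), another fast delayed rectifier, measured 1583.6, 1081.7 and 1552.1 in OD and 771.8, 801.7 and 26.4 in OS. The eyes did not overlap, but the OS array of rat 3 lay far below the others and under its limit. The difference was -2.22 ± 2.61 (limma adjusted p = 0.590), and -0.72 without rat 3. Its 5 other probe sets, none of them tested, had differences from -1.18 to 0.65. Kcnc4 (1393163_at) measured 862.6, 866.6 and 1363.8 in OD and 999.2, 941.2 and 732.2 in OS. Its eyes overlapped, with a difference of -0.19 ± 0.61 (adjusted p = 0.962), and its other probe set, 1391369_at, stood at 1.66 ± 0.99 (limma adjusted p = 0.773). On that probe set the eyes did not overlap. OD measured 212.4, 414.4 and 83.4, each below its limit, and OS 639.0, 707.2 and 633.7, each above it.

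The Kcna class, delayed-rectifier channels of axons and nerve terminals, had 6 genes, of which 3 entered the fit. Kcna2 (1379092_at) measured 5457.0, 6527.7 and 8468.1 in OD and 1574.2, 3961.6 and 1607.9 in OS. Every value exceeded its limit and the eyes did not overlap, with rat 2 showing the smallest gap. The log2 difference was -1.63 ± 0.84 (limma adjusted p = 0.293). Its other probe set, not tested, stood at 0.21 ± 2.66. Kcna5 (1370268_at) measured 657.0, 642.0 and 770.0 in OD and 79.1, 212.0 and 139.0 in OS, where all 3 arrays lay below their limits. OD was thus at least 1.52-fold higher, counted against the limit, and the measured difference was -2.23 ± 0.65 (adjusted p = 0.705). Kcna6, the only other Kcna gene in the fit, had a mean difference near 0, while Kcna1, Kcna3 and Kcna4 were too dim to enter it. Kcna4, which carries a rapidly inactivating current, measured 405.1, 531.5 and 366.7 in OD and 162.8, 53.6 and 56.1 in OS (-2.21 ± 0.89, not tested), with only 2 OD arrays above the limit.

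Promoters are shown for Kcnc1 and Kcna2, the genes with the smallest p among the 35, and for Kcnc4, of the same class as Kcnc1. Kcnc4 overlapped between eyes on its brightest probe set but not on its other one. Each is the 250 bases before the annotated start in RefSeq (GRCr8), 5' to 3' on the gene's strand: chr1:106038997-106039246 (+) for Kcnc1, chr2:197393280-197393529 (+) for Kcna2 and chr2:197788434-197788683 (-) for Kcnc4. Capitals mark matches, on either strand, to GGGCGG (the GC box) or CCAAT.
Kcnc1: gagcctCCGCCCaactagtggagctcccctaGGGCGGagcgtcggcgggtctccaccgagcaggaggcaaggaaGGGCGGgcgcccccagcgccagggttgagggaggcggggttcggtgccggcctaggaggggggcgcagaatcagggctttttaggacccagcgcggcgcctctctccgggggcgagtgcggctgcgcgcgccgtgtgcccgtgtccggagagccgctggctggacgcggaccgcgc
Kcna2: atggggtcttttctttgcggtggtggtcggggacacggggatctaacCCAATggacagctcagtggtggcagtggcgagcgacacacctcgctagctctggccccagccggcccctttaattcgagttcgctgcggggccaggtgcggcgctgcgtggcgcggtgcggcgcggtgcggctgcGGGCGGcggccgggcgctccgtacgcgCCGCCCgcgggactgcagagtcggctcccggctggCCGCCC
Kcnc4: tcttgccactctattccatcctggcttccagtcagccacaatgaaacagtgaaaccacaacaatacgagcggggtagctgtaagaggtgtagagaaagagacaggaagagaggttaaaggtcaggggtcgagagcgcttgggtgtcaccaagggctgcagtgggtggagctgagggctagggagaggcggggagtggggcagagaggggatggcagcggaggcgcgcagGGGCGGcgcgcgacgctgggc
GGGCGG occurred 3 times in Kcnc1, 3 times in Kcna2 and 1 time in Kcnc4, and CCAAT 1 time, in Kcna2. RefSeq starts were found for 52 of the 75 genes, 58 starts in all. GGGCGG was present before 32 of these 58 (55.2%), against 30.5% of 33469 starts of all genes. The median GC content was 62.0% before channel gene starts and 51.2% before all starts. TATAAA was present in 3.45% against 12.9%, CCAAT in 27.6% against 34.0%, CACGTG in 3.45% against 5.59% and TGACGTCA in 0 of 58 against 1.59%, each searched on both strands with overlapping matches counted. These matches describe letters in this window and were not related to the differences between eyes.

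**Figure D2:**
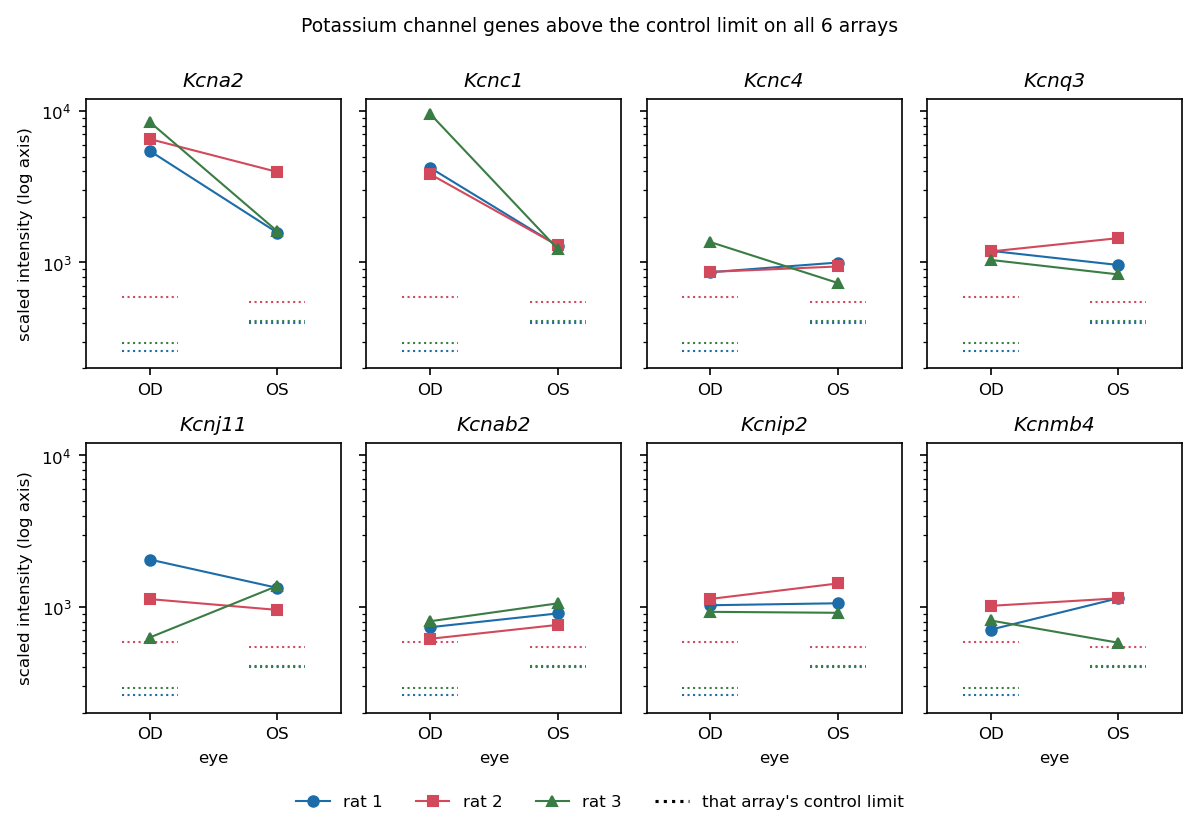
Scaled intensity (log axis) of the 8 potassium channel genes that exceeded the control limit on all 6 arrays, in the OD and OS eye of each rat, with a line joining the eyes of a rat and a dotted mark at that array's limit. In Kcna2 and Kcnc1 all OS points lie below all OD points, as in 1292.7 against 4223.5 for Kcnc1 in rat 1, while the eyes overlap in the other 6 genes.

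The other genes above the limit on all 6 arrays, 8 of 75 in total (10.7%, against 15.7% of all genes), showed smaller differences. Kcnq3 (1369005_at), a subunit of the channel behind the M-current that damps repetitive firing, measured 1194.2, 1182.2 and 1039.7 in OD and 962.5, 1447.8 and 834.3 in OS. Its difference was -0.11 ± 0.35 (limma adjusted p = 0.977). The pore subunit of ATP-sensitive channels, Kcnj11 (1391007_s_at, a suffix that marks probes able to match more than 1 transcript), measured 2055.7, 1126.7 and 628.5 in OD and 1336.7, 956.1 and 1375.2 in OS. It differed by 0.09 ± 0.91 (adjusted p = 0.985), lower in OS in rats 1 and 2 and higher in rat 3. Kcnmb4 (1387318_at), the neuronal accessory subunit of large-conductance calcium-activated channels, measured 708.1, 1016.9 and 814.0 in OD and 1141.4, 1140.5 and 580.6 in OS, a difference of 0.12 ± 0.58 (adjusted p = 0.977). In all 3 genes the eyes overlapped.

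Among 13 accessory subunit genes 5 entered the fit and 0 passed the adjusted threshold. Kcnab1 (1378738_at), an oxidoreductase-like subunit that speeds inactivation of Kcna channels, measured 606.1, 1095.2 and 1732.0 in OD and 284.4, 229.1 and 18.7 in OS. All OS values lay below their limits, so OD was at least 2.30-fold higher, and the measured difference was -2.96 ± 2.40 (limma adjusted p = 0.519; -1.62 without rat 3). Its paralogue Kcnab2 (1390674_at) measured 734.7, 616.1 and 804.7 in OD and 906.1, 761.2 and 1055.8 in OS, slightly higher in OS in every rat, by 0.33 ± 0.05 (adjusted p = 0.933), although the eyes overlapped. The Kcnip proteins bind calcium and act on Kcnd channels. Kcnip1 (1394097_at) measured 1561.5, 1614.6 and 2089.9 in OD and 875.5, 543.0 and 464.7 in OS, where rat 2 was just under its limit. The eyes did not overlap, and the difference was -1.50 ± 0.66 (adjusted p = 0.592). Kcnip2 (1373987_at) measured 1026.2, 1129.5 and 928.3 in OD and 1057.5, 1429.0 and 914.9 in OS, overlapping, with 0.12 ± 0.19 (adjusted p = 0.975). The Kcnd pore genes themselves had differences of -0.16 for Kcnd1, -0.31 for Kcnd2 and 0.63 for Kcnd3, each with different signs among rats. Kcnab3, Kcnip3 and Kcnip4, also too dim to be tested, differed in sign among rats, with means of -1.15, -0.45 and -0.38. The 4 Kcne genes were too dim to enter the fit.

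Kcnma1 encodes the pore of large-conductance calcium-activated channels, and its probe sets gave opposite answers. The brightest, 1372929_at, measured 917.6, 908.8 and 2253.7 in OD and 18.7, 75.4 and 416.3 in OS, with 1 OS array above its limit. The eyes did not overlap, and the difference, -3.49 ± 1.19 (limma adjusted p = 0.306), rests on OS values at or near background. The 2 other probe sets, too dim to be tested, went the other way in 3 of 3 rats. Probe set 1369334_at measured 31.2, 102.4 and 214.6 in OD and 673.1, 854.7 and 295.7 in OS (2.39 ± 1.77). Probe set 1370472_a_at measured 63.8, 32.8 and 43.6 in OD and 877.3, 664.2 and 246.3 in OS (3.14 ± 0.88). All 6 of their OD values lay below the limit, and each exceeded it on 2 of 3 OS arrays. No direction can therefore be given for the gene as a whole, and the positions of the probes in the transcript were not used here. Among the 31 channel genes with several probe sets, 21 (67.7%) had mean differences of both signs, against 58.4% of the 4525 such genes on the array. For the sodium-activated channel gene Kcnt1 the brightest probe set stood at -1.11 ± 1.54 and the next at 1.03 ± 0.60, both tested and neither past the threshold. Averaging all probe sets of a gene, an alternative added after the data were seen, turned the sign for 6 of the 18 genes given with every array: to 0.68 for Kcnma1, 0.74 for Kcnc4, 0.35 for Kcnq3, -0.06 for Kcnab2, -0.30 for Kcnip2 and -0.53 for Kcnj11. It left -0.71 for Kcna2, -0.70 for Kcnc2, -0.49 for Kcnip1 and -1.78 for Kcnab1, whereas Kcnc1 and Kcna5 have 1 probe set each.

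**Figure D3:**
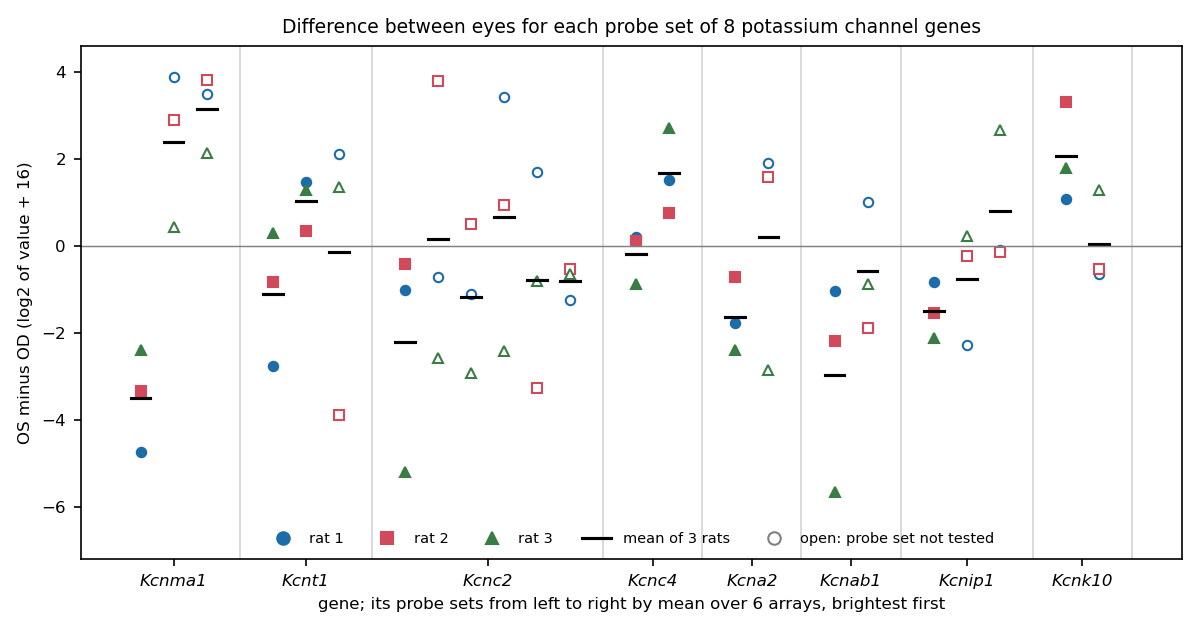
Difference between eyes (OS minus OD, log2 of value + 16) for every probe set of 8 potassium channel genes, brightest first, with 1 point per rat, a bar at the mean of 3 rats and open points where the probe set was not tested. The brightest Kcnma1 probe set lies at -3.49 and its other 2 at 2.39 and 3.14; for Kcna2 the brightest lies at -1.63 and the other at 0.21.

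Tandem-pore leak channels, 11 genes with 8 in the fit, lay on both sides. Kcnk3 (1387441_at), an acid-sensitive leak channel, measured 1166.6, 672.4 and 736.7 in OD and 28.8, 159.1 and 1195.7 in OS, so that rat 3 opposed the others (-2.00 ± 2.70, limma adjusted p = 0.730; -0.64 without rat 1 and -3.35 without rat 3). Its other probe sets, not tested, stood at -0.37 and 1.11. Kcnk10 (1369232_at), a stretch- and lipid-gated leak channel, measured 420.0, 34.5 and 114.4 in OD and 905.7, 485.7 and 431.4 in OS, with no overlap. Its difference was 2.06 ± 1.14 (adjusted p = 0.753), its limit was exceeded on 1 OD and 2 OS arrays, and its other probe set stood at 0.04 ± 1.08. Kcnk6, also without overlap, had a mean difference of 1.44 ± 0.32 on 1370776_a_at and 0.27 on its other probe set.

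A few channel genes known from other retinal cells, chosen with earlier results known, were followed individually. Kcnv2 (1390065_at), a silent subunit of photoreceptors, measured 189.5, 209.4 and 115.7 in OD and 794.1, 592.3 and 492.5 in OS. Every OD array lay below its limit and every OS array above it, so OS was at least 1.69-fold higher; the measured difference was 1.79 ± 0.31 (limma adjusted p = 0.766). Its other probe set, 1396871_at, was below the limit on all arrays and lower in OS in rat 1 (0.43 ± 0.60). Beside it, 13 of 15 listed photoreceptor markers summed to 13430 to 49442 in OD and 11997 to 32512 in OS, overlapping, with none at or below the limit throughout. Kcnj10 (1387467_at), the main channel by which Mueller glia buffer potassium, measured 13.7, 25.9 and 40.4 in OD and 82.4, 92.7 and 288.3 in OS. All 6 values lay below the limit, so its difference of 1.85 ± 0.54 gives no fold, and it was not tested. The 10 glial markers summed to 10653 to 29148 in OD and 9251 to 29770 in OS. Kcnj8 (1368911_at), a channel of pericytes, measured 103.0, 278.3 and 32.8 in OD and 296.8, 447.9 and 570.5 in OS, above the limit on the OS array of rat 3 alone (1.88 ± 1.52, not tested). The 8 measured vascular and pericyte markers of 9 summed to 5679 to 6969 in OD and 2728 to 12512 in OS. The glial and vascular sums overlapped between eyes, and neither list had a marker at or below the limit on every array. Other genes of such cells differed in sign among rats: Kcnj13, known from pigment epithelium, at 0.58 ± 2.18, and the glial genes Kcnj16 and Kcnj2 at 0.79 ± 1.29 and 0.68 ± 2.34, none tested. The other Kcnj16 probe set, 1373991_at, was higher in OS in 3 of 3 rats (1.26 ± 1.12, not tested) but exceeded the limit on no array. Of 8 listed bipolar cell markers 5 were measured, and all 5 had a higher mean in OS, 3 of them in 3 of 3 rats. Their summed intensity, 9066 to 30095 in OD and 14804 to 61306 in OS, overlapped between eyes and was lower in OS in rat 1 (14804 against 30095). It came mostly from Otx2, and none of the 5 markers lay at or below the limit throughout. Of the 10 microglia markers 7 had a higher mean in OS, with sums of 2772 to 4903 in OD and 3518 to 12551 in OS and none at or below the limit throughout. Among them Aif1 did not overlap between eyes (2.71 ± 1.10, not tested) and Lyz2, whose eyes overlapped, stood at 1.56 ± 0.02 (limma adjusted p = 0.492). Only these 2 were higher in OS in 3 of 3 rats. C1qb, Cd68 and Ptprc had a lower mean in OS, and in rat 2 the microglia sum was lower in OS (3518 against 4903). The part of these markers in the channel genes higher in OS was not tested.

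**Figure D4:**
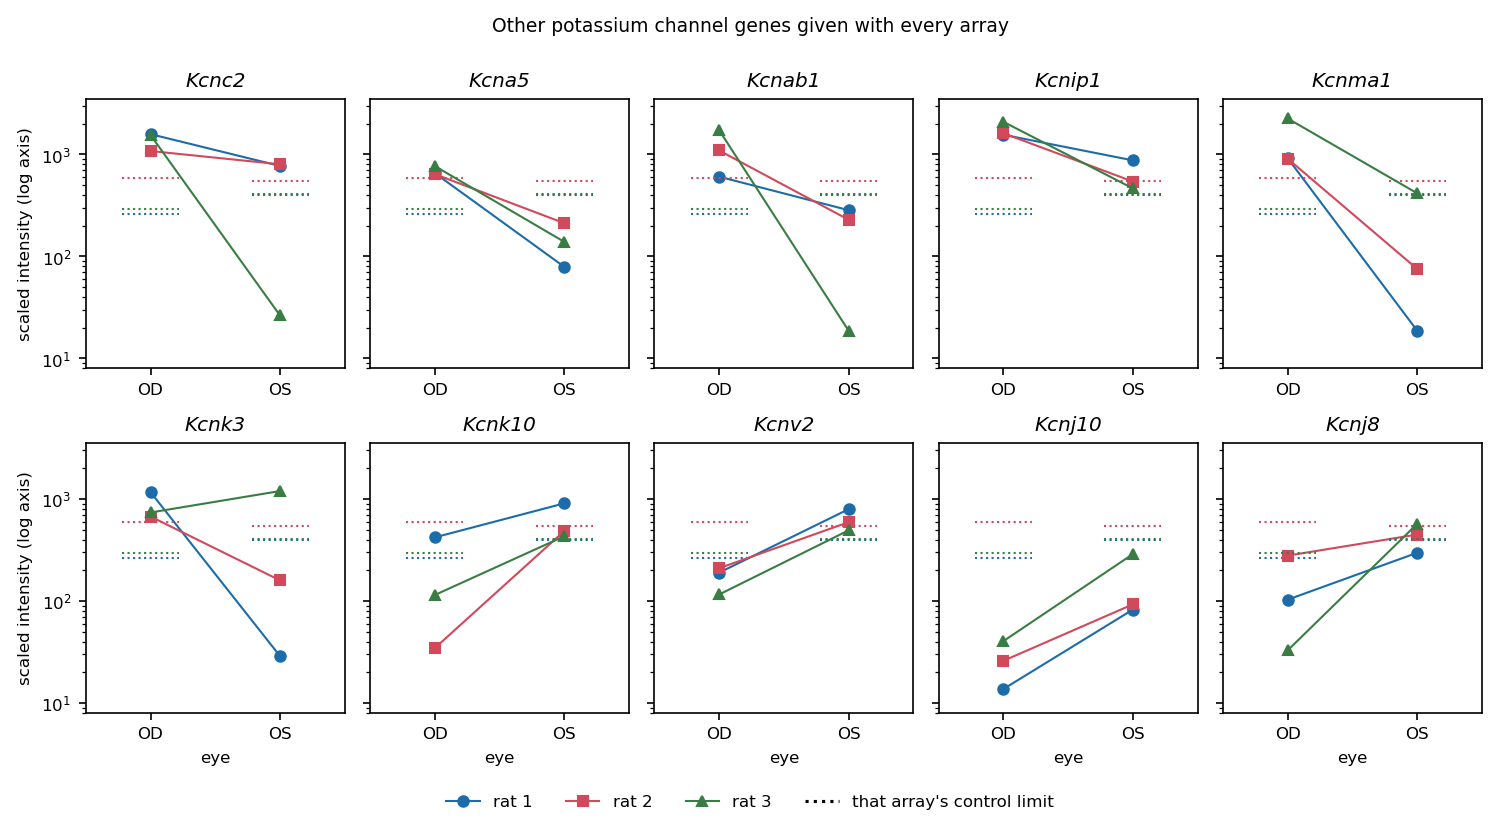
Scaled intensity (log axis) of 10 further potassium channel genes in the OD and OS eye of each rat, with a line joining the eyes of a rat and a dotted mark at that array's control limit. Kcnc2, Kcna5, Kcnab1, Kcnip1 and Kcnma1 are lower in OS in every rat, Kcnk10, Kcnv2, Kcnj10 and Kcnj8 are higher, and Kcnk3 is mixed; many points lie below the limit, such as 18.7 for Kcnma1 in OS of rat 1.

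The remaining members gave few values above background. Of the 75 genes, 11 exceeded the limit on no array (14.7%, against 10.5% of all genes): Kcnb2, Kcne1, Kcns2, Kcnv1, Kcnh7, Kcnj10, Kcnk12, Kcnmb1, Kcnn1, Kcnn3 and Kcnq1. The 40 genes not tested had differences from -2.35 for Kcns3, a silent subunit, to 2.35 for Kcnj3, a subunit of G protein-gated channels, with 19 lower and 21 higher in OS. In both of these genes 1 rat went against the others. Inward rectifiers were the class with most genes, 15, of which 10 had a higher mean in OS, 4 entered the fit and 2 of those 4 were higher; the smallest adjusted p of the 4 was 0.810. The 8 Kcnh genes ranged from -1.14 for Kcnh5 to 0.87 for Kcnh6, and the 3 Kcnq genes from -0.11 to 0.21. The 7 genes of the Kcng, Kcns and Kcnv class, which modify other channels and form none alone, had 6 higher and 1 lower in OS, with 3 in the fit.

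Proteins that bind, anchor or accompany these channels were taken from a list of 26 partners, of which 23 were measured and 17 entered the fit. By limma 0 of the 17 passed, 1 was lower in OS at an unadjusted p under 0.05 and 0 were higher, against 5.20% and 1.73% of all tested genes. That gene was Adam22, which links Kcna channel complexes at axons to the secreted protein Lgi1, at -1.57 ± 1.58 (limma adjusted p = 0.492), with 1 rat higher in OS. The median over the 17 was -0.23. Dpp6, an accessory subunit of Kcnd channels, had -0.55 ± 0.49, and the scaffold gene Dlg4 had -1.20 ± 3.22. Among pacemaker channel genes, related to potassium channels but also passing sodium, Hcn3 had 1.15 ± 0.52 with no overlap between eyes (adjusted p = 0.789), and Hcn2 had 0.25 ± 0.99.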

How the data were processed

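RNA of 6 arrays, both eyes of 3 rats, was compared. The deposited table holds 1 linear intensity per probe set and array. The submitters' processing notes name GCOS, the array maker's software, with no version. The trimmed mean (2% off each end) was 500.1 on all 6 arrays, so the values were taken as already scaled, and total RNA cannot be compared. The table held 31099 probe sets, 57 of them controls. An offset of 16 was added before log2, which understates differences of dim genes. Probe sets at or above the median mean log2 were fitted with limma 3.58.1 in R 4.3.3 (rat as a fixed block, eBayes with trend, two-sided), with 2 residual and 19.4 prior degrees of freedom, and adjusted by Benjamini-Hochberg over all 15521 at 0.05. Errors are SDs of 3 within-rat differences. No set test was run.

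Per the titles, the 2 eyes with 1 number belong to 1 animal; their deviations correlated at 0.109, 0.122 and 0.326, and those of eyes of different rats at -0.197 to 0.104. A fold against an eye below the control limit on all arrays was computed against that limit. The number of arrays limits precision; there are no detection calls in the values used. The fit was first tested on simulated data.

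Genes given with every array were the 10 tested members with the smallest p, those above the control limit on all 6 arrays, and Kcnj10, Kcnv2 and Kcnj8. A few others, among them Kcna4, Kcnk6, Kcnt1 and the partner genes, were named after their values were seen. The members and lists were chosen with earlier results of these data known. Offsets, filters, normalization, blocks, variance settings, array weights, gene means and leaving out each rat were tried as alternatives.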

Additional observations from a re-analysis of the deposited data

How the results depend on the processing

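Over the whole table, 2 probe sets passed the threshold. None passed (0) after quantile normalization, with an offset of 1, when tests were limited to probe sets over the control limit or to those past the 75th percentile, with eBayes run without its trend, without the replicate block, or where the replicate block was random. A robust prior gave 1, array weights 7, an offset of 64 gave 9, no filter 9, and dropping single rats gave 18 to 59. For potassium channel genes the count was 0 as reported and under 13 of 15 alternatives, and 0 to 1 on dropping a rat. The 1 was Kcnc1, without rat 1 or without rat 2, in fits with 1 residual degree of freedom. Of the 7 channel genes at an unadjusted p under 0.05, 4 still entered the fit from the 75th percentile up, where 16 channel genes were tested. These 4, Kcna2, Kcnc1, Kcnc2 and Kcnip1, all kept such a p, beside 638 of all 7761 probe sets tested there. When the probe sets of a gene were averaged, 24 channel genes were tested. Kcna5 and Kcnc1 kept such a p there, Kcna2 lost it and the others of the 7 were not tested. These 2 of 24 stood beside 440 of all 7367 genes tested, so the shares lay closer together than in the main setting. These counts were added after the data were seen. Without rat 3 there were 5, of which 3 were among the 7; without the trend there were 7, of which 5 were among them and 2 were higher in OS. Without the replicate block 6 of the 7 remained and 0 passed the adjusted threshold. Over all 15521 probe sets such a p was found for 925 without rat 3, 855 without the trend and 546 without the block. In the main setting it was found for 1072. The median over tested channel genes stayed between -0.38 and -0.03. With 1 rat left out, Kcnmb4 ran from -0.16 to 0.42, Kcnc4 from -0.38 to 0.16 and Kcnj11 from -0.42 to 0.44, each changing sign. Among the 18 genes given with every array, averaging the probe sets of a gene turned Kcnma1 to 0.68, Kcnc4 to 0.74, Kcnq3 to 0.35, Kcnab2 to -0.06, Kcnip2 to -0.30 and Kcnj11 to -0.53. The cause was not tested. Kcnj10 and Kcnj8 were run only without the filter and with averaged probe sets. Signal over background limits these results: only 8 of 75 genes exceeded the control limit on every array.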
